A study of Mus musculus with 6 samples.

Results

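The 33 genes described here are hosts of circular RNAs known in brain: genes whose exons are also joined into RNA circles. They were taken by name (Rims2, Tulp4, Hipk3, Slc8a1, Cdyl and 28 others) from gene-level count tables with 55604 Ensembl identifiers. All 33 were found, each with 1 identifier, among 21998 protein-coding genes. Brain of C57BL/6 mice was profiled in 6 libraries: 3 after an intraperitoneal injection of 4-aminopyridine (4-AP) and 3 untreated (NC). 4-Aminopyridine blocks voltage-gated potassium channels and served here to bring on status epilepticus, a prolonged seizure. In both groups RNase R, which digests RNA from a free 3′ end and so leaves circles intact, had been applied to the total RNA. The labels give neither the part of the brain, nor dose, time after injection, age or sex, and do not say whether each library is a separate animal, so p-values measure the spread between these libraries. The label of host genes was given from the circular RNA literature and cannot be checked with counts per gene.

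A circular RNA forms when the splice donor at the end of an exon is joined back to the acceptor of the same or an earlier exon. The join, called a back-splice, leaves no free ends, so the molecule resists exonucleases and can outlast its linear mRNA. Brain is rich in such circles, many from genes for synaptic and regulatory proteins, and long introns next to the circularised exons favour them. The counts here add all reads on the exons of a gene. A host's value therefore mixes its circle and what remained of its linear mRNA, and a change in one cannot be told from a change in the other.

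The libraries differed in ways that touch these values. Total counts ran from 1507882 to 2721287 in the 4-AP group and from 2355610 to 3409055 in the controls. A single gene, Lars2, took 12.4% to 21.4% of all counts after 4-AP, against 3.82%, 4.21% and 12.1% in control replicates 1 to 3. The 5 markers of cortical glutamatergic neurons summed to 649 to 982 CPM (counts per 1000000 scaled library counts) after 4-AP and to 1370 to 1430 in controls, and 5 hypothalamic hormone genes to 42.5 to 59.2 against 0.446 to 3.37. Of these, Slc17a7, Nrgn and Neurod2 passed the test described below as lower after 4-AP, and Oxt, Avp and Trh as higher. The 5 striatal markers summed to 54.1 CPM in control replicate 1 and to 395 to 766 in the other 5 libraries. Brain markers such as Snap25, Mbp and Slc1a3 were present in every library. The part of these differences in the host values was not tested, and in bulk tissue fewer cells of a type cannot be told from less RNA per cell.

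The gene models of the hosts were large and had long introns at their 5′ end. In the mm10 annotation (1 principal transcript per gene) the hosts spanned a median of 164000 bases, against 29700 for the 10988 protein-coding genes with enough counts to test, and all 33 lay above that median. Intron 1 had a median of 27300 bases, against 4300, and 27 of the 33 lay above the median of tested genes. Anks1b had the longest intron 1 of the list, 159 kb, and Rhobtb3 the shortest, 98 bases. Exon number differed less, with a median of 15 against 10. Exon 2 was unusually long in some hosts: it exceeded 600 bases in 9 of 33, and in 8.47% of the tested genes that have a second exon. These 9 were Slc8a1, Hipk3, Hipk2, Mbnl1, Zfp609, Kat6b, Foxo3, Cdyl and Samd4. In 7 of them the start codon lies in exon 2.

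**Figure D1:**
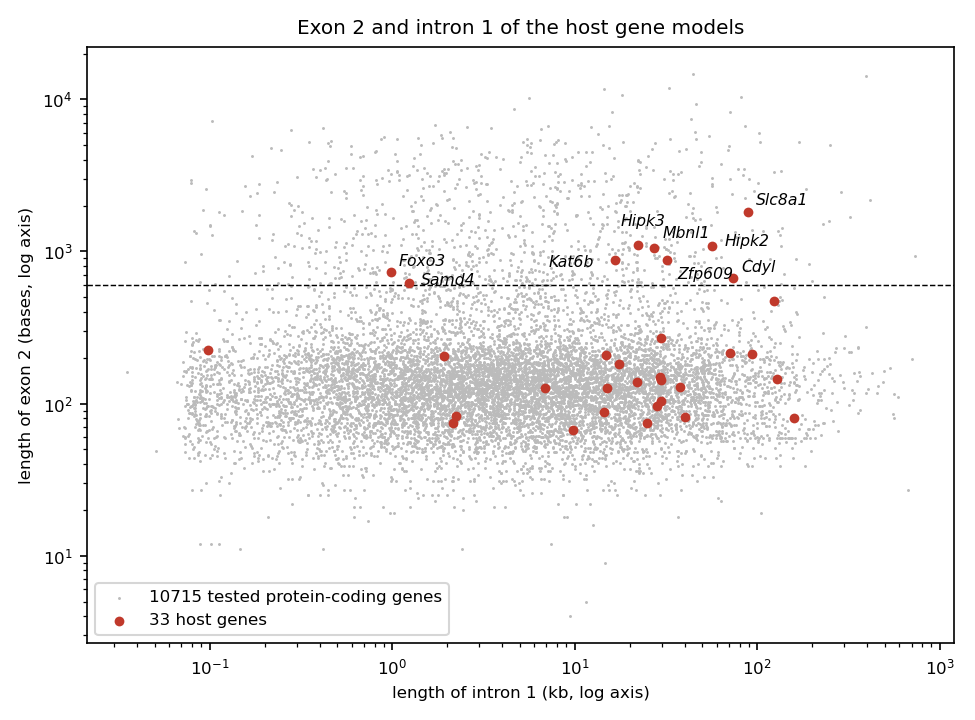
Length of exon 2 (bases) against length of intron 1 (kb), both on log axes, for the 33 host genes (red) and the 10715 tested protein-coding genes with a second exon (grey); the dashed line marks 600 bases. The 9 named hosts lie above the line, and 27 of the 33 hosts have an intron 1 longer than the median of tested genes.

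The sequences below show what gene-level counts leave unseen. For Hipk3, Slc8a1 and Zfp609 the best-known circle consists of exon 2 alone, and the only stretch that tells it from the linear mRNA is the join of the exon's end to its own start. Each line gives 30 bases, 5′ to 3′ on the transcript, built from the GENCODE M21 transcript: the last 15 bases of exon 2 in lower case, then its first 15 in capitals. They are reference sequence, and no back-splice read was available to show which of these joins occurred. For the hosts other than Hipk3, Slc8a1 and Zfp609, exon 2 is simply that of the principal transcript. Whether their known circles consist of that exon was not checked, so those lines need not be the joins of known circles.
Slc8a1 (exon 2, chr17:81647809-81649638, minus strand, 1830 bases): gaacgatgaaatagtGTTGGAGCAGTTGGA
Hipk3 (exon 2, chr2:104470749-104471847, minus strand, 1099 bases): atctcgctactacagGTATGGCCTCACAAG
Hipk2 (exon 2, chr6:38818230-38819313, minus strand, 1084 bases): atccagatactaccgGTATGGCCTCACATG
Mbnl1 (exon 2, chr3:60528756-60529804, plus strand, 1049 bases): tttgattcactgaaaGTTGGTACTAAGAAG
Zfp609 (exon 2, chr9:65794622-65795495, minus strand, 874 bases): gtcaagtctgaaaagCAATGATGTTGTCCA
Kat6b (exon 2, chr14:21516626-21517498, plus strand, 873 bases): catgagaaagaccagGTCTTGGTTTCCTAA
Foxo3 (exon 2, chr10:42274816-42275545, minus strand, 730 bases): tctgcgggctggaagGTAGCTGGAGCTCGA
Cdyl (exon 2, chr13:35815909-35816575, plus strand, 667 bases): ctgttaatggaaaagGTGGAAAGTATCGTT
Samd4 (exon 2, chr14:46884399-46885016, plus strand, 618 bases): aggccaacagcccggTAGTGATTGCCGCTT
The start codon begins at base 3 of exon 2 in Hipk3, base 32 in Slc8a1 and base 128 in Zfp609, so exon 2 holds the first part of their reading frame. In 5 of the 9 hosts exon 2 ends in AG. Since the other reads of exon 2 fit circle and mRNA alike, the values that follow are those of the whole gene.

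The hosts were among the more abundant protein-coding genes of this RNA. Levels of different genes were compared as CPM per kilobase of merged exons, and a gene's percentile is its place among the 21998 protein-coding genes of a library, 100 being the highest. The median host stood at the 95.1st percentile (mean of 6 libraries), and the median over the hosts ran from 95.2 to 96.1 in single libraries. In every library 16 hosts lay in the top 5% and 22 in the top 10%. No host fell below the middle of the ranking in any library. Between 32.0% and 36.9% of protein-coding genes had 0 counts in a library, which raises every percentile; among the 16463 genes with a count in any library the median host stood at 93.5.

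Cdyl, a chromodomain-like co-repressor, led the list. It stood at 195, 116 and 183 CPM per kilobase in 4-AP replicates 1 to 3 and at 130, 115 and 123 in the controls, and its place among protein-coding genes ran from 60 to 144. Hipk3, a homeodomain-interacting protein kinase, followed with 137, 111 and 150 CPM per kilobase after 4-AP and 114, 89.9 and 101 in controls. Cdyl and Hipk3 were the 2 hosts in the top 1% of every library. Rims2, a scaffold of the presynaptic active zone, stood at 102, 96.5 and 100 against 97.6, 74.9 and 70.5 CPM per kilobase. Rere, a nuclear receptor co-repressor of the atrophin family, stood at 114, 85.9 and 113 against 69.1, 62.2 and 82.0. Rtn4, which encodes the Nogo proteins of the endoplasmic reticulum and myelin, and Anks1b, which encodes a postsynaptic protein, came next with means of 84.3 and 78.7. These leaders thus include a kinase, 2 transcriptional co-repressors and 2 synaptic proteins.

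At the other end, 3 hosts stood near the 67th percentile. Mbnl1, a splicing regulator of the muscleblind family, was lowest with 2.86, 3.53 and 2.58 CPM per kilobase after 4-AP and 3.06, 3.99 and 3.46 in controls. Ttbk2, a tau tubulin kinase, stood at 3.14, 4.32 and 2.18 against 4.27, 3.41 and 4.26, although 29.9% of its exonic bases are shared with another gene, so its reads are less certain. Smarca5, the ATPase of ISWI chromatin remodelling complexes, stood at 2.60, 5.61 and 2.73 against 3.48, 4.60 and 3.62. The highest host was 44.4 times the lowest. Levels per kilobase depend on the merged exon length, which is 4392 bases in Cdyl, 18717 in Mbnl1 and at most 25772, in Birc6. Without division by length the median host stood at the 98.9th percentile. By counts, 7 hosts, led by Slc8a1, were among the 100 highest protein-coding genes.

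**Figure D2:**
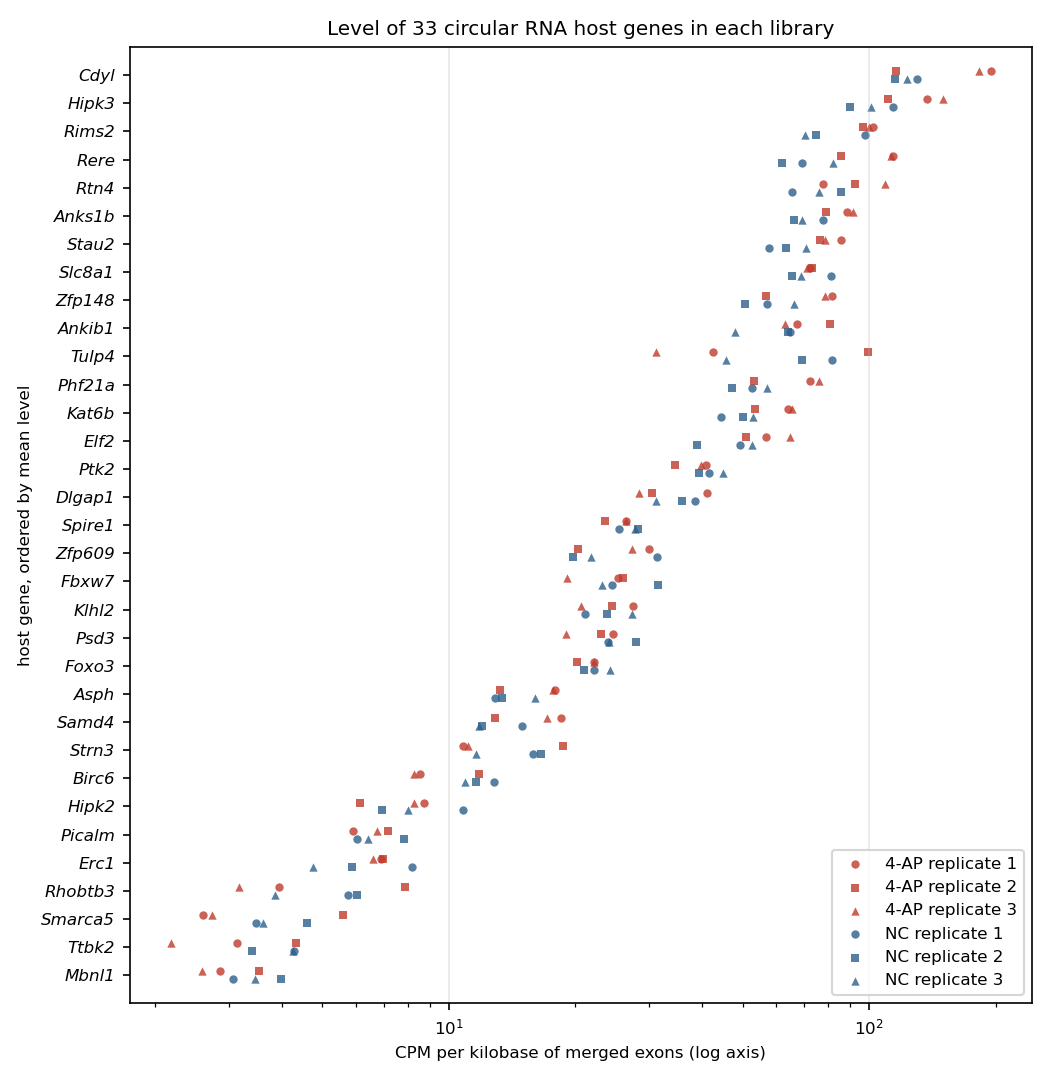
CPM per kilobase of merged exons (log axis) of the 33 host genes in each of the 6 libraries, ordered by mean level; red symbols are 4-AP and blue symbols NC libraries, with 1 shape per replicate number. Levels run from 3.24 for Mbnl1 to 144 for Cdyl on average, and the symbols of most genes lie close together compared with that range.

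By role, the 4 synaptic scaffolds and the 9 transcription and chromatin genes stood highest, with median percentiles of 97.8 and 98.2. Calcium handling (Slc8a1, the sodium-calcium exchanger, and Asph, an aspartate hydroxylase locus), ubiquitin and adaptor proteins, and membrane and cytoskeleton genes had medians of 94.5, 94.5 and 94.3. Kinases and RNA-binding proteins had 89.6 and 89.7. Each group spanned much of the list: the transcription and chromatin genes ran from Smarca5 at 68.6 to Cdyl at 99.5, and the synaptic scaffolds from Erc1, an active-zone protein, at 78.4 to Rims2 at 99.1. The 9 hosts with a long exon 2 had a median of 94.6 and the other 24 of 95.8, so both groups held abundant genes.

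Per kilobase, housekeeping mRNAs stood higher still after the digestion. A list of 20 housekeeping mRNAs, among them Actb, Gapdh and Eef1a1, had a median percentile of 99.3, above the hosts' 95.1, and all 20 stood at 88.3 or higher. Protein-coding genes with single-exon models only, which have no splice sites for a back-splice, took 2.54% to 3.20% of protein-coding counts. The hosts together took 1.56% to 1.89%, and the 20 housekeeping genes 0.688% to 0.891%. Without division by length the median host stood at the 98.9th percentile. The housekeeping list was not ranked that way, so its place above the hosts is given per kilobase only. There is no undigested library here, so how far RNase R raised a host above its level in total RNA cannot be given.

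**Figure D3:**
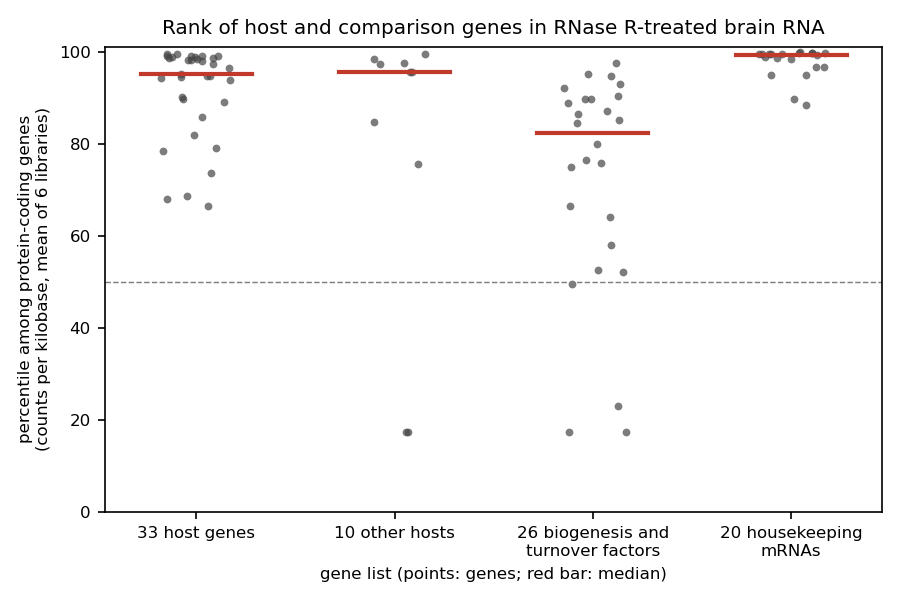
Percentile of each gene among protein-coding genes (CPM per kilobase, mean of 6 libraries) for the 33 hosts, 10 other circular RNA hosts, 26 factors of circular RNA formation and turnover and 20 housekeeping mRNAs; points are genes, red bars medians and the dashed line the middle of the ranking. The hosts' median of 95.1 lies between those of the factors (82.2) and the housekeeping mRNAs (99.3).

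The comparison of 4-AP with control brain asks whether the hosts' RNA differs after induced seizures. None of the 33 hosts passed edgeR's quasi-likelihood test at an adjusted p under 0.05, with 0.843% of the 11388 tested genes called (0.334% higher, 0.509% lower). At an unadjusted p under 0.05, 6 hosts were higher and 0 lower, against 6.29% and 7.57% of all tested genes. DESeq2 called 1 host, Rere, and 193 genes in all. With limma-voom 0 hosts and 71 genes in all were called. In 4 hosts (Rere, Stau2, Kat6b, Anks1b) all 4-AP libraries lay above all controls and in 0 below, against 8.36% and 10.4% of tested genes (18.8% in either direction). The fold change was above 0 in 18 hosts and below in 15, against 49% and 51% of tested genes. The median log2 fold change was 0.01 over the hosts, from -0.30 (Birc6) to 0.55 (Rere), and -0.01 over all tested genes. All 33 hosts had enough counts to be tested, and in 32 the 95% interval stayed within a 2-fold change in either direction. In only 16 did it stay within a 1.5-fold change. Scaling by total counts alone moved the median of all tested genes to -0.22 and that of the hosts to -0.20, so directions are relative to the bulk of genes.

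Of the 9 transcription and chromatin genes 7 lay above 0, against 49% of all tested genes, and 4 were higher at an unadjusted p under 0.05, against 6.29%. Their median was 0.32 on the log2 scale, against -0.01. Rere (chr4:150281646-150621966, plus strand) stood at 975, 732 and 966 CPM after 4-AP and at 590, 530 and 699 in controls. Each 4-AP library was above each control, by a narrow margin between 4-AP replicate 2 and control replicate 3. On the log2 scale the difference was 0.55 with an SE of 0.15, and edgeR gave an adjusted p = 0.0803. Rere passed with DESeq2 (adjusted p = 0.0219) and without 4-AP replicate 2 (log2 0.70; adjusted p = 0.0238 by edgeR), and in 3 further alternatives its adjusted p by edgeR was 0.0264, 0.03 and 0.0322. Over all alternatives its adjusted p ran up to 0.355.

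Cdyl (chr13:35659833-35874063, plus strand) stood at 856, 511 and 804 CPM after 4-AP and at 570, 507 and 539 in controls. Replicates 1 and 3 of the 4-AP group were above every control, whereas replicate 2 lay among them. The log2 difference of 0.42 had an SE of 0.17 (edgeR, adjusted p = 0.233), and without 4-AP replicate 2 it was 0.65 and passed (adjusted p = 0.0268). Phf21a, a component of a histone demethylase co-repressor complex, had 619, 455 and 649 CPM against 451, 403 and 490. The same 4-AP replicate was the one that overlapped the controls. Kat6b, a histone acetyltransferase, had 1080, 900 and 1110 CPM against 746, 841 and 889, a log2 difference of 0.32 (SE 0.14) with no overlap of the groups. The zinc finger factor Zfp148 (0.32) and the ETS factor Elf2 (0.29) were of like size, while Zfp609 (0.09), Smarca5 (-0.04) and the forkhead factor Foxo3 (-0.06) were near 0.

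Of the 3 RNA-binding proteins, Stau2, which carries RNA into dendrites, had 579, 515 and 529 CPM after 4-AP and 391, 429 and 477 in controls. The groups did not overlap, and the log2 difference was 0.32 with an SE of 0.14 (edgeR, adjusted p = 0.277). Samd4, a translational repressor of the Smaug family, was also at 0.32 (SE 0.17), with overlap. Mbnl1 had 53.5, 66.1 and 48.2 CPM against 57.2, 74.7 and 64.7, a log2 fold change of -0.22 (SE 0.19). Its groups overlapped, and it did not pass.

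Among the synaptic scaffolds, Anks1b had 1290, 1140 and 1330 CPM after 4-AP and 1120, 958 and 1000 in controls, without overlap (log2 0.28, SE 0.14). Rims2 had 1060, 1000 and 1040 CPM against 1010, 778 and 732, where control replicate 1 reached into the 4-AP range (log2 0.30, SE 0.15). Erc1 was at 0.12 and Dlgap1, a scaffold of the postsynaptic density, at -0.08. None of the 4 passed. Of the 5 neuronal markers, which summed to 1670 to 2020 CPM after 4-AP and 2090 to 2300 in controls, 4 lay below 0 and none passed (Rbfox3 and Syn1 at -0.65 each); their part in the scaffold values was not tested.

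The 4 kinases did not move together. Hipk3 (chr2:104426481-104494446, minus strand) had 1100, 884 and 1190 CPM after 4-AP and 913, 718 and 808 in controls, a log2 difference of 0.38 with an SE of 0.15 (edgeR, adjusted p = 0.236), with 4-AP replicate 2 below control replicate 1. Its relative Hipk2, whose exon 2 join is shown above beside that of Hipk3, was at -0.17 (SE 0.20) and at 54.3 to 95.5 CPM over the 6 libraries. Ptk2, the focal adhesion kinase, was at -0.12, and Ttbk2 had 35.9, 49.3 and 24.9 CPM against 48.7, 38.9 and 48.6 (log2 -0.27, SE 0.23). The difference between Hipk3 and Hipk2 was not tested.

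Of the 6 ubiquitin and adaptor genes 4 lay below 0, and of the 5 membrane genes 4, against 51% of all tested genes. Birc6, a giant ubiquitin-conjugating inhibitor of apoptosis, had the lowest fold change of the list: 220, 304 and 213 CPM after 4-AP and 329, 299 and 282 in controls (log2 -0.30, SE 0.15; adjusted p = 0.417 by edgeR). Replicates 1 and 3 of the 4-AP group were below every control, and replicate 2 lay among them. Fbxw7, a substrate receptor of an SCF ubiquitin ligase, had 177, 183 and 134 CPM against 173, 221 and 163 (log2 -0.17, SE 0.16). Psd3, an exchange factor for the GTPase Arf6, had 434, 405 and 335 against 421, 493 and 426 (log2 -0.19, SE 0.14). In both genes 4-AP replicate 3 was the lowest library. The ubiquitin ligase Ankib1 was at 0.25, and the Cullin-3 adaptor Klhl2 at 0.01 (95% interval -0.31 to 0.33).

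In the membrane group, Rtn4 was the 1 member above 0, with 544, 647 and 759 CPM after 4-AP and 459, 598 and 530 in controls (log2 0.30, SE 0.15). The groups overlapped, and 18.4% of its exonic bases are shared with another gene. The actin nucleator Spire1 (-0.09), the striatin Strn3 (-0.10) and the clathrin adaptor gene Picalm (-0.03) were near 0. Slc8a1, in the calcium group, had 1360, 1370 and 1340 CPM against 1520, 1230 and 1300, so the controls lay on either side of the 4-AP libraries. Its log2 fold change was 0.01, with a 95% interval from -0.28 to 0.30. Asph had 289, 213 and 284 CPM against 208, 215 and 258 (log2 0.20, SE 0.15), and its sign changed with total counts only (-0.01).

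**Figure D4:**
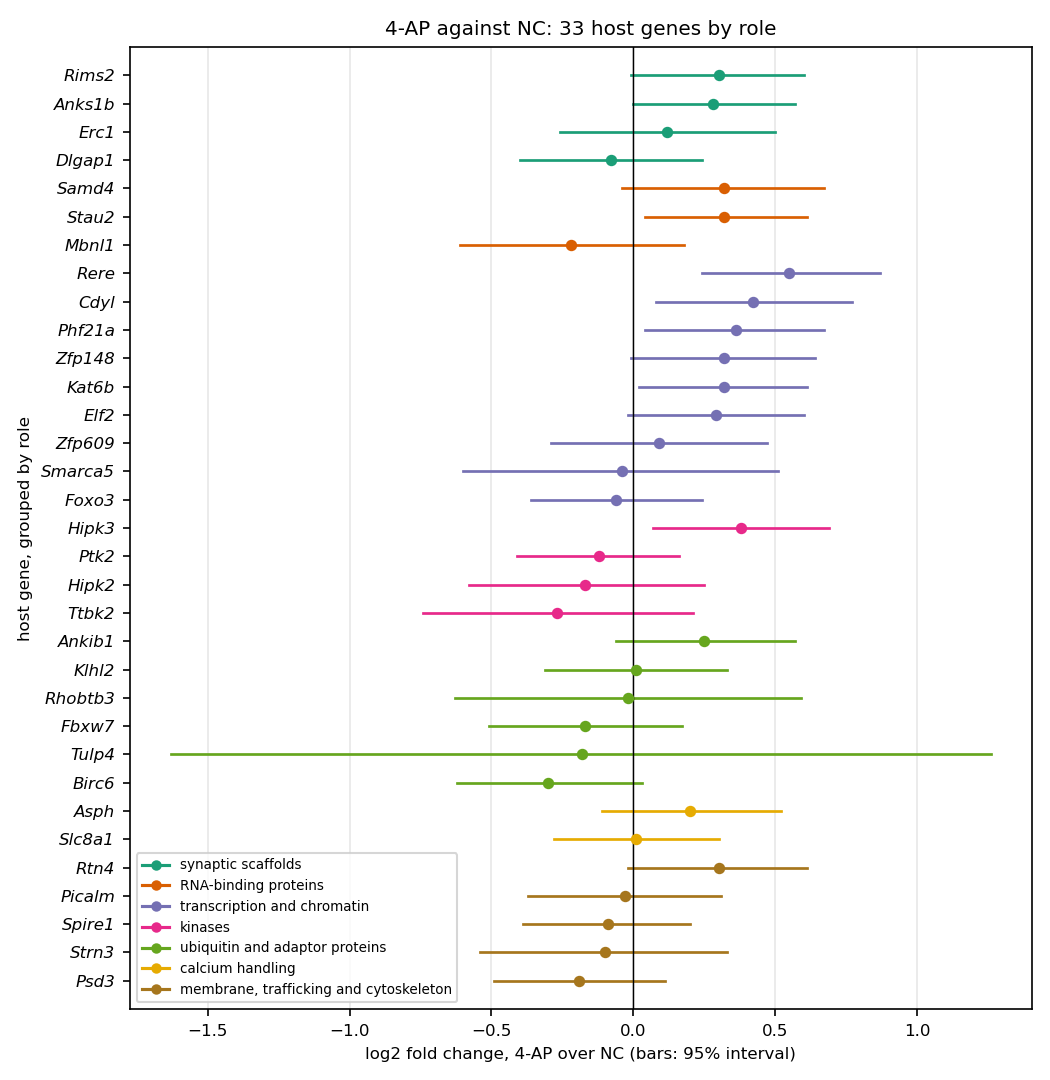
Log2 fold change of each host gene, 4-AP over NC, with its 95% interval from edgeR's quasi-likelihood fit, grouped and coloured by role. The transcription and chromatin genes lie mostly to the right of 0, up to 0.55 for Rere, and the interval of Tulp4 is the widest.

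The sign of the fold change went with the level of the host. Of the 16 hosts in the top 5% of every library 13 were above 0, and their median was 0.30 on the log2 scale; of the other 17 only 5 were, with a median of -0.06. Among all 814 tested protein-coding genes in the top 5% of every library 43.2% lay above 0, with a median of -0.05. The 6 hosts at an unadjusted p under 0.05 (edgeR) were all among the 16. By the same cut 77 of the 814 genes were higher, and 613 of the other 10174 tested protein-coding genes. The 3 of the 16 hosts below 0 were Tulp4 (-0.18), Ptk2 (-0.12) and Dlgap1 (-0.08). This split was drawn after the values had been seen, and it has no test. The difference between the 2 medians was 0.36, and it ran from 0.29 to 0.45 in the fits that left out 1 library. Those fits kept the same 16 hosts and share most of their libraries, so this range cannot test the split.

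The hosts were also summed as a share of reads. They took 1.64%, 1.83% and 1.76% of protein-coding counts after 4-AP and 1.89%, 1.75% and 1.56% in untreated brain. For 4-AP replicate 3, the library with the fewest counts, the Wilson 95% interval ran from 1.73% to 1.78%, and it covers counting error only. The groups overlapped, with means of 1.74% ± 0.0958 and 1.73% ± 0.164 (SD, n = 3 each). Lars2 is part of that total, and it took 12.4% to 21.4% of all counts after 4-AP and 3.82% to 12.1% in controls. Leaving it out therefore raises the 4-AP shares more on average by arithmetic. Keeping it in likewise lowers them more, and which of the 2 shares describes the hosts better was not tested. With Lars2 left out, an alternative chosen after seeing the data, the hosts took 2.22%, 2.14% and 2.21% after 4-AP and 1.97%, 1.84% and 1.83% in controls, and the groups no longer overlapped. The share is a sum in which the abundant hosts weigh most.

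Replicates of most hosts agreed closely, and a few did not. The SD of log2 CPM between replicates was 0.12 or less in Stau2, Anks1b, Ptk2, Slc8a1, Foxo3 and Spire1, and at most 6.95% of tested genes had a smaller one. Tulp4, a tubby-like protein gene with a SOCS box, was the other extreme with an SD of 0.68, wider than in 93.9% of tested genes. It had 768, 1790 and 561 CPM after 4-AP, against 1480, 1250 and 823 in untreated brain. The highest and the lowest value thus both belong to the 4-AP group, 3.19-fold apart, and the fold change of -0.18 has a 95% interval from -1.63 to 1.26. These places among tested genes were not matched for abundance. The median SE of the fold change was 0.15 in the hosts and also in the housekeeping mRNAs. It was 0.19 over tested genes at or above the lowest host in mean log2 CPM, and 0.25 over all tested genes.

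Other hosts with a wide spread had the same highest library as Tulp4, while the order of the rest differed between genes. Rhobtb3, which encodes a BTB-domain protein, had 22.8, 45.4 and 18.3 CPM after 4-AP and 33.3, 35.0 and 22.3 in controls. Smarca5 had 20.2, 43.6 and 21.2 against 27.0, 35.8 and 28.1, and Strn3 71.7, 124 and 73.8 against 106, 110 and 77.2. In Tulp4, Rhobtb3, Smarca5, Strn3 and Ttbk2 alike, 4-AP replicate 2 was the highest of all 6 libraries. In Ttbk2 the margin was narrow, at 49.3 CPM against 48.7 in control replicate 1. That library also had the most counts and the smallest Lars2 share of the 4-AP group. Its choroid plexus markers summed to 56.5 CPM, against 0.259 to 8.04 in the other libraries. Its astrocyte (703 CPM), oligodendrocyte (3580), GABAergic (368) and endothelial (76.5) marker sums were the largest too, by smaller margins. The other cell type lists did not peak in it. The part of any of these in the host values was not tested. In Cdyl, Rere, Hipk3 and Kat6b, 4-AP replicate 2 was the lowest of the 4-AP group.

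**Figure D5:**
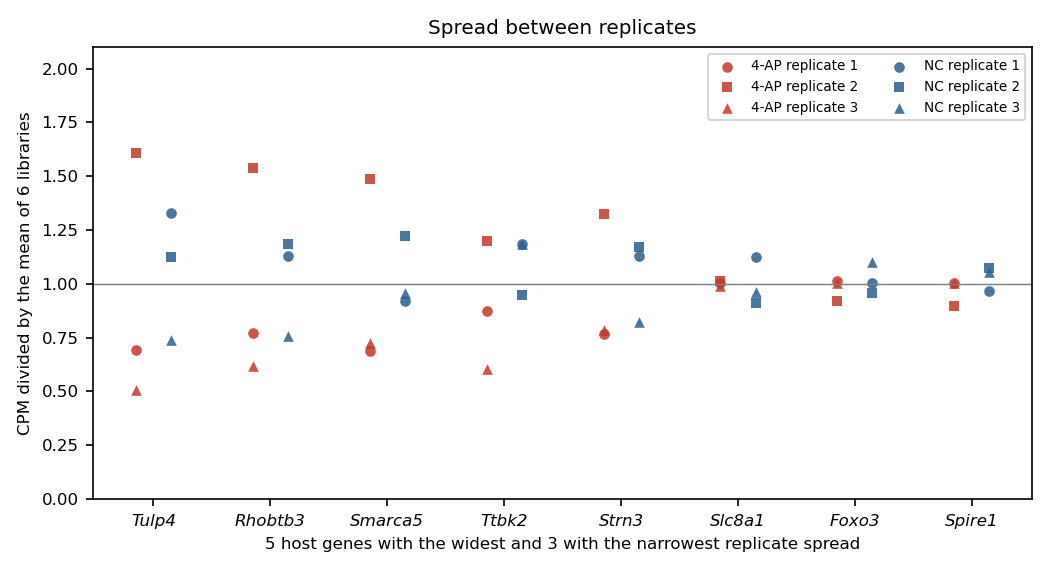
CPM of a gene in each library divided by its mean over the 6 libraries, for the 5 hosts with the widest and the 3 with the narrowest spread between replicates; red symbols are 4-AP and blue symbols NC libraries. In the 5 wide genes 4-AP replicate 2 (red square) is the highest point, and Slc8a1, Foxo3 and Spire1 stay close to 1.

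A further 11 hosts were listed beside the 33. Of these, 9 had enough counts to test, and 7 lay above 0, against 49% of all tested genes. None passed, with 0.843% of all tested genes called. In 1 of them, Dmd, all 4-AP libraries lay below all controls, against 10.4% of tested genes. Rims1 and Cdr1, which lies opposite the locus of a well-known circular RNA of brain, are listed at 0 counts in each of the 6 libraries. So are Srsf1 and Celf1, splicing factor genes used in most cell types, and whether a zero means no RNA or a gene left out in counting was not tested. Igf1r, the host of the circle in the series' title, had 176, 138 and 175 CPM after 4-AP and 191, 149 and 146 in controls, at the 84.6th percentile. Homer1, a postsynaptic scaffold whose short form is induced by activity, had 372, 308 and 232 CPM against 328, 440 and 494 (log2 -0.47, SE 0.18; adjusted p = 0.216 by edgeR). Gigyf2, a translational repressor, was at 0.46 (SE 0.17; adjusted p = 0.193 by edgeR). Ankrd12 stood as high as the leading hosts, at the 99.4th percentile.

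None of the factors that form, bind or degrade circular RNAs was called either, with 0.843% of all tested genes called. Of 26 listed, 23 were tested, and 9 lay above 0 and 14 below, against 49% and 51% of all tested genes. Their median was -0.05 on the log2 scale, against -0.01. Ago2, the slicing Argonaute of microRNA silencing, had 66.5, 60.0 and 69.4 CPM after 4-AP and 96.2, 78.3 and 98.2 in controls. All 3 4-AP libraries lay below all controls, but the gene did not pass (log2 -0.48, SE 0.17; adjusted p = 0.193 by edgeR). Sfpq, a nuclear RNA-binding protein of paraspeckles, was at -0.37 (SE 0.18), also without overlap. In 10.4% of all tested genes the 4-AP libraries likewise lay below all controls. The circle-promoting factor Qk (-0.03), the RNA helicase Dhx9 (0.05), which unwinds paired introns, and the RNA-editing enzyme Adar (-0.14) were near 0. The 20 housekeeping mRNAs, read as a check on abundant linear RNA, had a median log2 fold change of 0.06, and none passed; the smallest p belonged to the tubulin gene Tubb4a (-0.56, edgeR adjusted p = 0.094) and the chaperone gene Hsp90ab1 (-0.35, edgeR adjusted p = 0.226).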

How the data were processed

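RNase R-treated brain RNA was measured in 6 libraries. For each library the authors deposited raw counts per gene. The submitters' processing notes name STAR 2.5.3a, featureCounts and the mm10 build. How multi-mapping reads, strand and annotation release were handled is not given in the sources used here. Identifiers were matched without version to GENCODE M21 (mm10; 54809 of 55604). Merged exon lengths, exons and introns came from that annotation, with the principal transcript of each gene. Low genes were removed with filterByExpr at its minimum count of 10 and minimum total of 15, and the rest were tested with edgeR 4.0.16 in R 4.3.3 (TMM scaling, robust quasi-likelihood fit, group as the only term, Benjamini-Hochberg over 11388 genes, threshold 0.05). CPM are counts per scaled library size times 1000000; SE came from the fold change and its F. A count of 3 equals 0.778 to 2.19 CPM. The procedure was tested on simulated data. Library pairs differed by at least 7.79 chi-square per degree of freedom, so none looked duplicated.

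The hosts and lists were chosen with earlier results of these data known. Named with values were the 6 highest and 3 lowest hosts per kilobase, the 5 smallest p in each direction, hosts called in any fit and 1 host per role; Tulp4, Slc8a1, Hipk2, Samd4, Rhobtb3, Strn3 and the other hosts named, and outside the list Ankrd12, Qk, Dhx9 and Adar, were added after their values were seen. Alternatives were other scalings, filters and tests (DESeq2 1.42.0, limma-voom 3.58.1), an offset by loess for length and GC content (span 0.5), left-out RNA classes or libraries, and the replicate number as a block.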

Additional observations from a re-analysis of the deposited data

How the results depend on the processing

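The number of all called genes was 96 and moved to 319 with total counts only, 193 with DESeq2, 328 with no filter on low counts, 265 with the replicate block and 290 at an adjusted p under 0.1; leaving out 1 library gave 26 to 159. The count of called hosts was 0 and became 1 with DESeq2, no filter, the replicate block, the loess offset for length and GC, and an adjusted p under 0.1 (Rere each time); leaving out 1 library gave 0 to 2, the 2 being Rere and Cdyl without 4-AP replicate 2. The hosts' median log2 fold change, 0.01, was -0.20 with total counts only and -0.02 with no filter, 0.18 without replicate 1 of both groups, and -0.01 to 0.12 when 1 library was left out. Of the named hosts, Smarca5 (-0.04) was at 0.14, 0.12, 0.11 and 0.07 without 4-AP replicate 1, 4-AP replicate 3, NC replicate 2 and replicate 1 of both groups, and at -0.53 without 4-AP replicate 2, and Asph at -0.01 with total counts only. The median percentile, 95.1, was 98.9 without division by length, 96.2 with the longest transcript and 93.5 among genes with a count. The mean host share, 1.74%, was 1.46% of all counts and 2.03% without Lars2. The series text calls the tissue paired without saying what equal numbers share. The deviations of same-numbered libraries from their group means had correlations of -0.002, 0.113 and 0.025, which do not settle whether the numbers mark pairs, so the replicate block is given as an alternative only; with it Rere passed (edgeR, adjusted p = 0.0264). The cause of these shifts was not tested. The hosts' 95% intervals, not adjusted for multiple tests, had a median half-width of 0.32 on the log2 scale, and the share of depth and of the spread between libraries in it was not tested.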
